A study of Rattus norvegicus with 12 samples.

Results

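RNA levels of 4 genes of galactolipid synthesis and ceramide breakdown were followed in primary rat oligodendrocyte precursor cells (OPCs). These cells mature into the myelin-forming oligodendrocytes of the brain. Enzyme activity and lipids were not measured in these libraries. Ugt8 and Fa2h were taken for the synthesis side and Acer2 and Acer3 for the breakdown side, 4 of the 30562 annotated genes. All 4 were among the 13348 genes that were tested, those whose counts averaged 5 or more per library. The deposited counts carry Ensembl identifiers without symbols, so the genes were recognised by the mean normalized count that a supplementary table of the study lists beside each symbol. That table holds genes that the study itself called between CTK-2 and CTL on these libraries. The change in that comparison is therefore given as a description, and the comparison of CTK2+GAL with GAL, made in the other 6 libraries, is the one tested here.

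The study asked whether galinex (GAL), which activates the receptor GPR17, alters the response of OPCs to inflammatory cytokines. OPCs from the cortex of newborn wild-type Sprague-Dawley rats, males and females, were kept in differentiating medium in all 4 groups, with 3 libraries each. CTL received the vehicle DMSO alone, and GAL received 10 nM galinex. CTK-2 received IFN-γ, TNF-α and IL-1β, each at 2 ng/mL, and then DMSO, and CTK2+GAL received the same cytokines and, 6 h later, 10 nM galinex. RNA was collected 24 h after galinex or DMSO. The OPCs had been shaken off mixed glial cultures, which can also hold microglia and astrocytes, after an earlier shake meant to take microglia away. The study stained a preparation for GFAP, of astrocytes, and Iba1, of microglia. It reported few GFAP-positive and no detectable Iba1-positive cells, without saying whether these libraries came from that preparation. The labels do not say whether the 3 libraries of a group came from separate cultures, so the p-values measure only the spread between these samples. In bulk RNA, fewer cells of a type and less RNA per cell cannot be told apart.

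Galactosylceramide and its sulfated form are the typical glycolipids of myelin, and the sugar is placed on ceramide by UDP-galactose ceramide galactosyltransferase, the product of Ugt8. Fa2h encodes fatty acid 2-hydroxylase, which makes the 2-hydroxy fatty acids found in a large share of myelin galactolipids. Acer2 and Acer3 encode alkaline ceramidases of the Golgi and of the endoplasmic reticulum and Golgi, which split ceramide into a fatty acid and sphingosine, the precursor of sphingosine 1-phosphate.

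The genes lie on 4 chromosomes of the build of the count tables, mRatBN7.2. Ugt8 (ENSRNOG00000009345) spans chr2:214264483-214332660 on the minus strand, with 3481 bases of exon. Fa2h (ENSRNOG00000018950) spans chr19:39312906-39364153 on the minus strand, with 2488 bases of exon. Acer2 (ENSRNOG00000007637) spans chr5:101391885-101442614 on the plus strand, with 5157 bases of exon, and was told from 1 other candidate with the same mean count by its chromosome. Acer3 (ENSRNOG00000036866) spans chr1:152504186-152606591 on the minus strand, with 4327 bases of exon. It overlaps 1 gene on the opposite strand, and the counting used the strand. The counts are sums over the exons of each gene.

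The 250 bases before each RefSeq start site are shown as sequence context for the 4 genes. The coordinates are those of the GRCr8 build of RefSeq, and each sequence is written 5′ to 3′ on the strand of its gene. Capitals mark matches, on either strand, to the GC box GGGCGG or to the CCAAT box CCAAT.
Ugt8, chr2:217007168-217007417, minus strand: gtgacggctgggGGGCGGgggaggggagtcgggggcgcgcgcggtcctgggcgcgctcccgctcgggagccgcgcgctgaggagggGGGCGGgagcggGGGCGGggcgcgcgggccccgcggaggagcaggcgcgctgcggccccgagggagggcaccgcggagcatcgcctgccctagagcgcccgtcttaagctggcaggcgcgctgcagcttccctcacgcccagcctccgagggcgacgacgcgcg
Fa2h, chr19:56273481-56273730, minus strand: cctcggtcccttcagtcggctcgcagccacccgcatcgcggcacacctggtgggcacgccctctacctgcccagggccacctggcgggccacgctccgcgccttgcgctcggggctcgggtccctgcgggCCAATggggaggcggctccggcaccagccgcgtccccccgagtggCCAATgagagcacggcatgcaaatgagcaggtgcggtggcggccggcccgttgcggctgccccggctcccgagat
Acer2, chr5:106437598-106437847, plus strand: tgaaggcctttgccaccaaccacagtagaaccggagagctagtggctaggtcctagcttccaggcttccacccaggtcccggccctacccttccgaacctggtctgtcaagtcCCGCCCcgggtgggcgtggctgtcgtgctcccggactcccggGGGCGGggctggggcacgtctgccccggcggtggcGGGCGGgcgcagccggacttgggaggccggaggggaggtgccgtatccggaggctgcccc
Acer3, chr1:162017799-162018048, minus strand: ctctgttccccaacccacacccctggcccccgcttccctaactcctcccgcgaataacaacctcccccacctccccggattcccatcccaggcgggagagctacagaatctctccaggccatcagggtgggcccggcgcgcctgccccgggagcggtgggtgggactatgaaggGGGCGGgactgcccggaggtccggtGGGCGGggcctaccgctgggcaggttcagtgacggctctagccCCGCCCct

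All 4 windows were rich in G and C, with 81.2% for Ugt8, 74.4% for Fa2h, 71.2% for Acer2 and 70.0% for Acer3. The median over the 33469 windows of this length in the same table was 51.2%. The GC box was found 3 times each upstream of Ugt8, Acer2 and Acer3 and had no match upstream of Fa2h, and 30.5% of all windows held it. The CCAAT box was found 2 times upstream of Fa2h, at 120 and 75 bases before the start, and had no match in the other windows. It was present in 34.0% of all windows. The TATA box TATAAA (12.9% of all windows), the gamma-activated site TTCNNNGAA (7.67%), the sterol regulatory element TCACNCCAC (0.974%) and the SOX motif ACAAAG (16.3%) had no match in any of the 4 windows, on either strand.

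Counts were scaled to CPM, the usual scaling of counts to the size of the library, here after TMM normalization. Per kilobase of exon, the level fell in the order Ugt8, Fa2h, Acer3 and Acer2 in each of the 12 libraries. In CTL the means were 211.8, 84.7, 3.32 and 0.930 CPM per kilobase. These levels placed Ugt8 at the percentile 98.4 and Fa2h at 94.9 of the 13348 tested genes, against 27.8 for Acer3 and 11.1 for Acer2. In CTK-2 the means were 94.5, 36.3, 1.95 and 0.260 CPM per kilobase, at the percentiles 96, 86.1, 17.1 and 1.27. Over the 4 groups, Ugt8 lay between the percentiles 96 and 98.5 of the tested genes and Fa2h between 85.7 and 95, while Acer3 lay between 17.1 and 29.5 and Acer2 between 1.27 and 12.

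**Figure D1:**
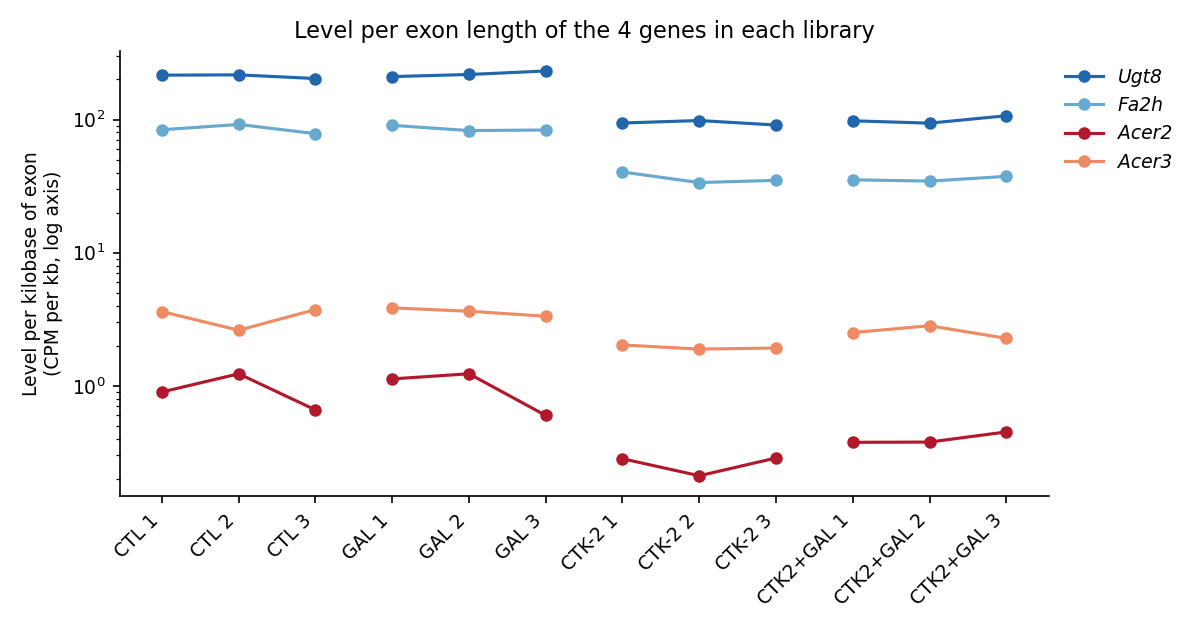
Level of the 4 genes per kilobase of exon in each of the 12 libraries, on a log axis, with lines joining the libraries of a group. The order Ugt8, Fa2h, Acer3, Acer2 holds in each library, from 211.8 CPM per kilobase for Ugt8 to 0.930 for Acer2 as means of CTL.

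The library totals lay between 2600797 counts in GAL 1 and 8978185 in CTK2+GAL 3, with a median of 5519440. Ugt8 had 1570 to 4697 counts in a library and Fa2h 452 to 1229. Acer2 had 6 to 38, so that its counting error alone was a coefficient of variation of 37.8% per library in CTK-2 and 19.4% in CTL. Acer3 had 42 to 100 counts. The standard errors given with fold changes also hold the spread between libraries.

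Without GAL, the cytokines went with lower counts of all 4 genes. Ugt8 stood at 750.1, 754.1 and 707.7 CPM in CTL and at 327.9, 342.2 and 316.5 CPM in CTK-2. Fa2h stood at 208.6, 228.6 and 194.9 CPM in CTL and at 100.5, 83.7 and 87.0 CPM in CTK-2. Each CTK-2 library lay below each CTL library for both genes of the synthesis side. Acer2 stood at 4.64, 6.35 and 3.40 CPM in CTL and at 1.46, 1.09 and 1.48 CPM in CTK-2. Acer3 stood at 15.6, 11.3 and 16.2 CPM in CTL and at 8.77, 8.17 and 8.33 CPM in CTK-2. The ceramidase libraries did not overlap between the groups either.

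The fitted level in CTK-2 was 44.6% of that in CTL for Ugt8 and 42.9% for Fa2h, a log2 fold change of -1.16 (SE 0.06) and -1.22 (SE 0.08). It was 28.7% for Acer2 and 58.1% for Acer3, a log2 fold change of -1.80 (SE 0.37) and -0.78 (SE 0.16). All 4 passed both thresholds of a call, 0.05 for the adjusted p-value and 0.59 for the size of the log2 fold change, where 5.79% of all tested genes were called lower and 11.5% higher. Libraries that did not overlap, with CTK-2 lower, were seen for 23.8% of all tested genes. Nothing is read from these counts, because the table that names the genes was made from this comparison.

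**Figure D2:**
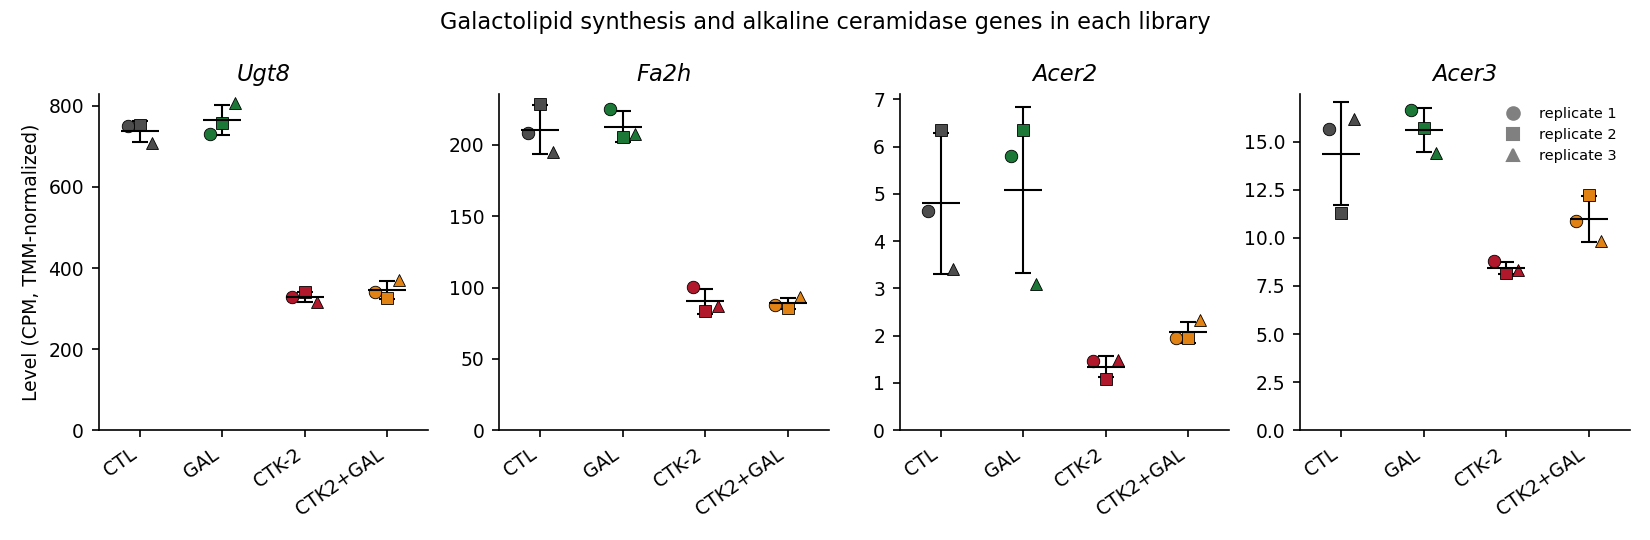
CPM of Ugt8, Fa2h, Acer2 and Acer3 in each library, by group, with a line at the mean and bars of 1 SD (n = 3), on axes that start at 0. CTL and GAL overlap for each gene and lie above both cytokine groups for Ugt8, Fa2h and Acer2, while for Acer3 the lowest CTL library, at 11.3 CPM, is below the highest CTK2+GAL library, at 12.2 CPM. Ugt8 stands at 737.3 and 765.5 CPM without cytokines and at 328.9 and 346.5 CPM with them.

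With GAL in both groups, Ugt8, Fa2h and Acer2 fell with cytokines and Acer3 was lower by less than the fold threshold. Ugt8 stood at 731.8, 758.7 and 806.1 CPM in GAL and at 340.7, 327.1 and 371.7 CPM in CTK2+GAL. The lowest GAL library was above the highest CTK2+GAL library by a wide margin, and the means were 765.5 ± 37.6 and 346.5 ± 22.9 CPM (SD, n = 3). The fitted level of Ugt8 in CTK2+GAL was 45.3% of that in GAL, a log2 fold change of -1.14 (SE 0.06, 95% interval -1.27 to -1.01, edgeR quasi-likelihood test, adjusted p = 8e-11).

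Fa2h stood at 225.1, 205.5 and 207.7 CPM in GAL and at 87.7, 85.8 and 93.1 CPM in CTK2+GAL. The groups did not overlap, and the means were 212.8 ± 10.7 and 88.9 ± 3.81 CPM (SD, n = 3). The fitted level in CTK2+GAL was 42.0% of that in GAL, a log2 fold change of -1.25 (SE 0.08, 95% interval -1.41 to -1.09, edgeR quasi-likelihood test, adjusted p = 2.9e-10). The counts of Fa2h and Ugt8 thus fell by amounts whose intervals overlap. The ratio of Ugt8 to Fa2h per kilobase was 2.58 ± 0.23 in GAL and 2.78 ± 0.06 in CTK2+GAL (SD, n = 3), and it lay between 2.32 and 2.92 over all 12 libraries.

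Acer2 stood at 5.81, 6.35 and 3.09 CPM in GAL and at 1.94, 1.95 and 2.32 CPM in CTK2+GAL, from 15, 38 and 18 counts and from 10, 11 and 21 counts. No CTK2+GAL library reached the lowest GAL library, which was GAL 3. The log2 fold change was -1.23 (SE 0.33, 95% interval -1.91 to -0.54, edgeR quasi-likelihood test, adjusted p = 0.0057). Without GAL replicate 2, the highest library, it was -0.93 with an adjusted p of 0.074 by the same edgeR test, and the call was lost.

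Acer3 stood at 16.7, 15.7 and 14.4 CPM in GAL and at 10.9, 12.2 and 9.85 CPM in CTK2+GAL. The groups did not overlap. The fitted level in CTK2+GAL was 70.5% of that in GAL, a log2 fold change of -0.50 (SE 0.15, 95% interval -0.83 to -0.18, edgeR quasi-likelihood test, adjusted p = 0.014), which is under the fold threshold and so no call. That adjusted p was 0.053 without GAL replicate 2 and 0.082 without CTK2+GAL replicate 3 (edgeR).

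In this comparison 3 of the 4 genes were called lower, where 5.74% of all tested genes were called lower and 11.7% higher. The libraries of all 4 did not overlap, with CTK2+GAL lower, as was seen for 24% of all tested genes. Ranked by log2 fold change, 1.21% of the tested genes lay below Fa2h, 1.33% below Acer2, 1.52% below Ugt8 and 9.4% below Acer3. The median log2 fold change of all tested genes was 0.01. The 4 genes were already named for their change with cytokines, so their count and ranks cannot be read against that background.

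GAL alone left no detectable difference in any of the 4 genes. The log2 fold change of GAL versus CTL was 0.05 for Ugt8 (95% interval -0.07 to 0.18) and 0.01 for Fa2h (-0.14 to 0.16). It was 0.07 for Acer2 (-0.54 to 0.68) and 0.09 for Acer3 (-0.23 to 0.41), and the libraries of the groups overlapped for each gene. The adjusted p-value was 1 for each by the edgeR quasi-likelihood test, which called 0% of all tested genes, with 4.3% at an unadjusted p under 0.05, and DESeq2 called 0 as well. The intervals of Ugt8, Fa2h and Acer3 lay within the fold threshold in both directions, while that of Acer2 reached past it on its upper side.

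With cytokines on both sides, the synthesis genes again overlapped between CTK2+GAL and CTK-2. The log2 fold change was 0.08 for Ugt8 (95% interval -0.06 to 0.21) and -0.02 for Fa2h (-0.18 to 0.15). The ceramidases stood higher in each CTK2+GAL library than in any CTK-2 library, at 1.94 to 2.32 against 1.09 to 1.48 CPM for Acer2 and at 9.85 to 12.2 against 8.17 to 8.77 CPM for Acer3. That arrangement was seen for 5.72% of all tested genes. In CTK-2 the libraries lay closer together than counting error alone, with a coefficient of variation of 3.73% for Acer3 and 16.4% for Acer2. The counting error was 15.1% and 37.8%, so the lack of overlap is not read as a difference. The log2 fold change was 0.65 for Acer2 (95% interval -0.23 to 1.53, unadjusted p = 0.14) and 0.37 for Acer3 (0.01 to 0.72, unadjusted p = 0.043), both from the edgeR quasi-likelihood test with an adjusted p of 1. Neither was called. The counts of Acer2 over the 3 libraries were 21 in CTK-2 and 42 in CTK2+GAL. No gene passed the thresholds in this comparison (0% of all tested genes by edgeR, 4.08% at an unadjusted p under 0.05, and 0 by DESeq2).

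The cytokine effect with GAL minus that without GAL, the interaction, was 0.02 on the log2 scale for Ugt8 (95% interval -0.16 to 0.20) and -0.03 for Fa2h (-0.25 to 0.19). It was 0.58 for Acer2 (-0.49 to 1.65) and 0.28 for Acer3 (-0.20 to 0.76). With each library left out in turn, it ranged from 0.26 to 0.87 for Acer2 and from 0.18 to 0.41 for Acer3. Each had an adjusted p of 1 by edgeR, which called 0% of all tested genes, with 2.82% at an unadjusted p under 0.05, and DESeq2 called 0. The smaller fall of the ceramidases in the GAL pair than in the DMSO pair was therefore not shown as a difference. One side of this contrast is the comparison from which the genes were named.

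**Figure D3:**
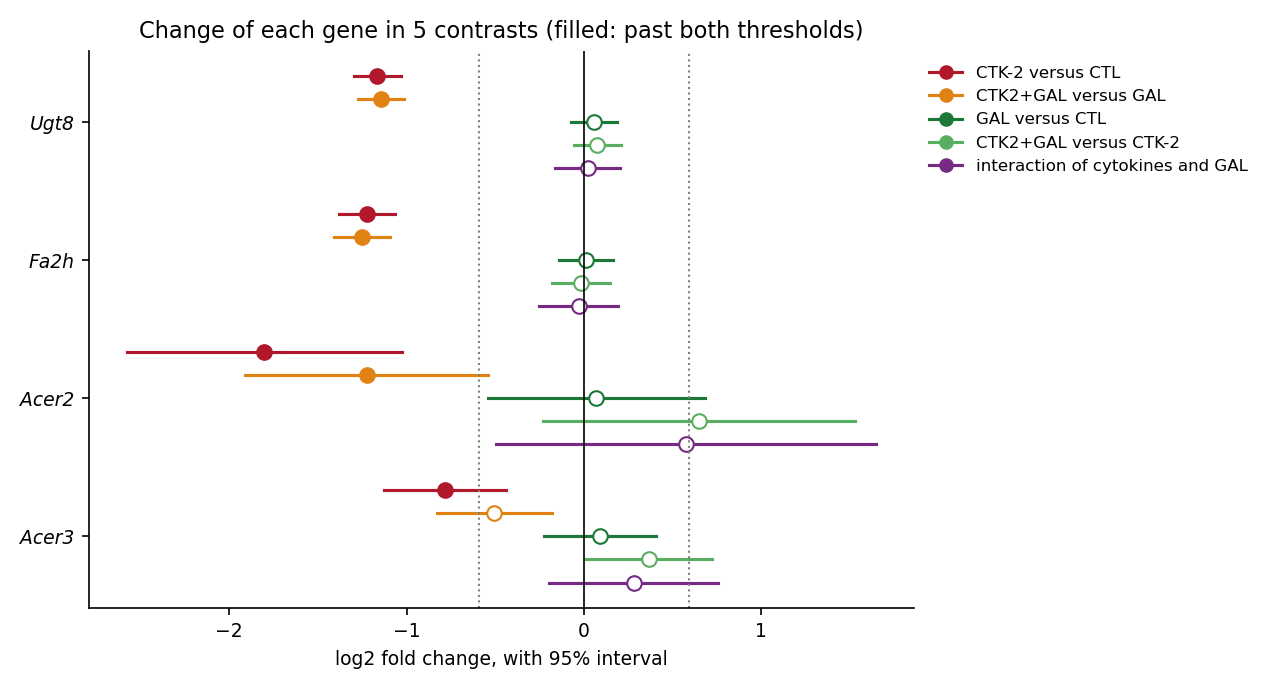
The log2 fold change of each gene in the 5 contrasts, with its 95% interval, filled where both thresholds were passed and with dotted lines at the fold threshold of 0.59 in both directions. The points of both cytokine comparisons lie left of 0 for all 4 genes, from -1.80 to -0.50, and the interval of Acer2 is the widest in each contrast.

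Set against each other, the summed level of Ugt8 and Fa2h per kilobase was 70.2 ± 8.78 times that of Acer2 and Acer3 in CTL and 67.5 ± 11.02 times in GAL (SD, n = 3). It was 59.4 ± 3.13 times in CTK-2 and 46.4 ± 6.42 times in CTK2+GAL. The CTK2+GAL libraries, at 46.1, 40.1 and 52.9, lay below the lowest of the other libraries, which was 56.9 in CTK-2. The ratio was computed with the levels known and is given with no test. Its denominator was mostly Acer3, which stood at 2.12 to 8.94 times Acer2 per kilobase over the 12 libraries. The counting error of Acer3 alone was 15.1% per library in CTK-2, and neither ceramidase was called between CTK2+GAL and CTK-2.

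Around these enzymes, 55 genes of sphingolipid metabolism were listed, from ceramide synthesis to the receptors of sphingosine 1-phosphate. Symbols were at hand for 12 of them, the 4 genes above and 8 others, because the table of names holds genes called between CTK-2 and CTL. The rest, which include the sulfotransferase Gal3st1, the galactosylceramidase Galc and the other ceramidases, were not analysed here. The 12 are therefore no sample of the pathway, and their counts carry the direction of the table they were named from. In CTK-2 versus CTL, 2 of the 8 others were lower and 6 higher, the median of their log2 fold changes being 0.77. In CTK2+GAL versus GAL, 1 was called lower, 6 were called higher and 1 was not called, with a median of 0.85. Of all tested genes, 5.74% were called lower and 11.7% higher, with a median of 0.01, but genes already named for their change with cytokines cannot be read against that background. None of the 12 was called in either GAL comparison or in the interaction by edgeR or DESeq2. By edgeR, Acer3 in CTK2+GAL versus CTK-2 was the only one at an unadjusted p under 0.05, and DESeq2 gave it an unadjusted p of 0.085.

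On the synthesis side of ceramide, Cers4, a ceramide synthase, rose in CTK2+GAL versus GAL from 22.4 ± 1.40 to 36.9 ± 2.20 CPM (SD, n = 3), which is 0.73 on the log2 scale (SE 0.12). Sptssa, a small subunit of serine palmitoyltransferase, the enzyme of the first step, stood at 45.8 ± 9.11 and 33.4 ± 2.93 CPM, a log2 fold change of -0.46 that was under the fold threshold. The genes that place galactose on glucosylceramide, to give the lactosylceramide from which gangliosides are made, were higher with cytokines. B4galt5 rose from 45.04 ± 4.40 to 99.0 ± 3.43 CPM and B4galt6 from 63.2 ± 8.07 to 101.2 ± 5.08 CPM (SD, n = 3). Ugt8 and these genes encode the galactosyltransferases of different glycolipid branches, and they moved in opposite directions in the same libraries.

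Smpd3, a neutral sphingomyelinase that releases ceramide from sphingomyelin, rose from 26.1 ± 2.40 to 50.8 ± 2.87 CPM in CTK2+GAL versus GAL (SD, n = 3). The receptors of sphingosine 1-phosphate moved both ways. S1pr5, the receptor typical of oligodendrocytes, stood at 9.46 ± 3.28 CPM in GAL and fell to 2.91 ± 0.39 CPM in CTK2+GAL (SD, n = 3), which is -1.80 on the log2 scale (SE 0.30). S1pr2 rose from 16.2 ± 1.42 to 32.3 ± 1.89 CPM. S1pr3 rose from 0.28 ± 0.26 CPM, with 0 to 3 counts in each GAL library, to 5.12 ± 0.97 CPM, with 27 to 37 counts. Of the 12 named genes, those called lower in CTK2+GAL versus GAL were Ugt8, Fa2h, Acer2 and S1pr5.

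**Figure D4:**
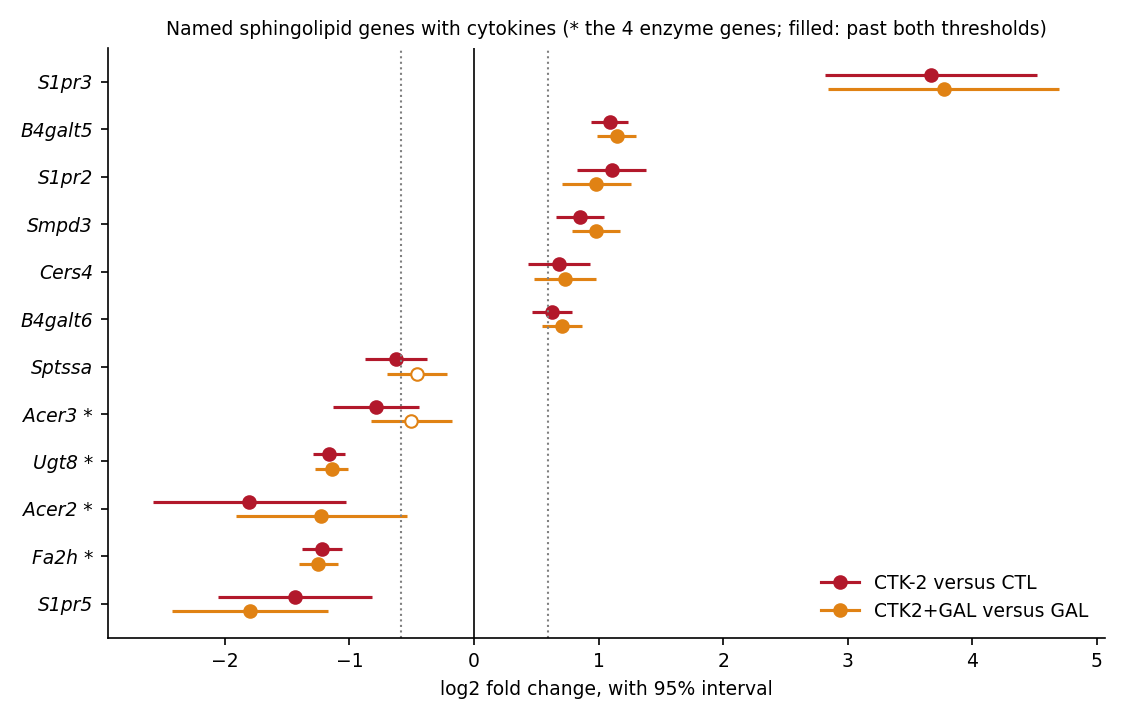
The log2 fold change of the 12 named sphingolipid genes in both cytokine comparisons, with 95% intervals, filled where both thresholds were passed, the 4 enzyme genes starred and dotted lines at the fold threshold of 0.59. S1pr3 stands highest at 3.77 and S1pr5 lowest at -1.80 in CTK2+GAL versus GAL.

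Among named genes with a mean of at least 10 CPM, those whose log2 CPM followed each gene most closely over the 12 libraries were found by Pearson's r, as a description. All of them come from the table of genes called between CTK-2 and CTL, and each r holds the cytokine difference that the libraries share. Eprs and Sec23a were among the 3 closest to Ugt8 (r = 0.995 each). Sqle, which encodes squalene epoxidase, was closest to Fa2h (0.995), followed by Kcnh5 (0.995) and Map1b (0.994). Hddc3, Add3 and Nop10 were closest to Acer2 (0.968, 0.966 and 0.961), and Tmem186, Snx22 and Dusp19 to Acer3 (0.925, 0.911 and 0.908). Once the group means were taken out, the r of these neighbours lay between 0.232, for Dusp19 with Acer3, and 0.901, for Add3 with Acer2. Ugt8 and Fa2h had r = 0.987 with each other over the 12 libraries and 0.182 once the group means were taken out.

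The cell type was checked on marker lists, of whose 44 genes 12 are reported here. Most of the others had no symbol through that table, so their absence from the text says nothing of their level. The OPC markers Pdgfra, Cspg4 and Ptprz1 were present in every library, and their sum lay at 2232 to 2497 CPM without cytokines and at 3921 to 4220 CPM with them. The sum of Mag, Mog, Cldn11 and Tspan2, markers of maturing oligodendrocytes, lay at 686.4 to 799.2 CPM without cytokines and at 281.8 to 314.1 CPM with them. All 4 were called lower in both cytokine comparisons (background 5.79% and 5.74% of all tested genes). Nothing is read from this count, because a marker has a symbol here only through the table of genes called between CTK-2 and CTL. They had log2 fold changes of -1.59 for Tspan2 to -0.91 for Cldn11 in CTK2+GAL versus GAL, a range that holds the values of Ugt8, Fa2h and Acer2. Of other cell types, the microglial Csf1r and P2ry12 summed to 1.72 to 6.64 CPM without cytokines and to 11.8 to 16.1 CPM with them. In CTK2+GAL versus GAL the log2 fold change was 2.15 for P2ry12 and 0.61 for Csf1r. The Csf1r libraries overlapped there, with an adjusted p of 0.4 by the edgeR quasi-likelihood test. The astrocytic Aldoc lay at 228.6 to 285.2 CPM without cytokines and at 152 to 167.5 CPM with them. Tubb3, a neuronal gene, lay at 79.9 to 98.5 and at 155.8 to 188.9 CPM, and Col1a2, of fibroblasts, at 0.687 to 1.94 and at 4.85 to 7.96 CPM. Aldoc, Tubb3 and Col1a2 are each the only gene of their list with a symbol, through that same table. They are therefore not read as the share of a cell type. The marker sums moved with the cytokine comparisons of the 4 genes, and their part in them was not tested. The sums of CTK-2 and CTK2+GAL overlapped for the markers of OPCs, maturing oligodendrocytes, microglia, astrocytes and neurons, and those of Col1a2 did not, with the lower values in CTK2+GAL.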

How the data were processed

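Whole counts of read pairs per gene were taken as deposited by the authors for 12 libraries, not normalized. The study's methods give FastQC and STAR, and per the file headers the counts came from featureCounts 2.0.0 with the Ensembl 112 annotation of the build mRatBN7.2. Pairs had to map with both ends to the reverse strand of a single gene. Chimeric pairs, reads marked as duplicates and pairs with several map positions were left out, so that Acer3, which has a pseudogene copy in RefSeq, may lose some.

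Symbols came from a supplementary table of the study, matched by mean normalized count and, for 173 of its 1786 entries, by chromosome also, which named 1764 genes. Of 791 entries not used to fit the size factors and matched by mean count alone, 790 lay on the same chromosome in RefSeq, against 5.56% after shuffling. Entries told apart by chromosome, among them Acer2, are outside this check. The fold changes and p-values of that table were not used. The genes and lists were chosen with earlier results of these data known.

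Counts were fitted with edgeR 4.0.16 in R 4.3.3 (TMM, glmQLFit, glmQLFTest) with 1 mean for each of 4 groups, leaving out genes under a mean of 5. The Benjamini-Hochberg adjustment ran over the 13348 remaining genes. The SE is the size of the log2 fold change over the root of F. Tested on simulated data for CTK2+GAL versus GAL, the fit called 75% of genes changed by 1 and 93% of those changed by 2 on the log2 scale, with 2 false calls among 13348 genes. Genes named beside the 4 are sphingolipid genes called with cytokines, the 3 closest to each by r, and cell type markers, of which some are not reported here.

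Alternatives were DESeq2 1.42.0, its size factors, total counts, no filter, filterByExpr, a filter on the interquartile range, a replicate block, fits of 2 groups, no fold threshold and each library left out. Deviations of same-numbered libraries from their group means correlated at 0.502, 0.544 and 0.834 between CTL and GAL. CTL 1 with GAL 2 had 0.535 and CTL 2 with GAL 1 had 0.353, so numbers 1 and 2 are not told apart. Libraries 3 stood apart from the others. Neither the labels nor these values establish pairs. In the other comparisons at least 1 correlation was under 0.1, and the libraries were not taken as pairs. Promoter windows came from RefSeq (GRCr8), where all 4 genes matched by symbol.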

Additional observations from a re-analysis of the deposited data

How the results depend on the processing

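The number of the 4 genes called in each comparison stayed within 1.5 times its value under every alternative run, and Ugt8 and Fa2h were called lower in both cytokine comparisons under each of them. Acer2 in CTK2+GAL versus GAL lost its call without GAL replicate 2 and ranged from -1.54 to -0.93 over the libraries left out in turn. Acer3 in that comparison, at -0.50, was called only without the fold threshold.

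With the replicate block, no call of the 4 genes changed, and Acer2 in CTK2+GAL versus GAL had a log2 fold change of -1.17 beside -1.23 without it. GAL versus CTL with the replicate block, by library number, on the CTL and GAL libraries alone was added after seeing the data. It gave 0.05 for Ugt8, 0.01 for Fa2h, 0.05 for Acer2 and 0.12 for Acer3.

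Sign changes occurred only among uncalled values near 0. With each library left out in turn, GAL versus CTL ranged from -0.23 to 0.38 for Acer2, from -0.043 to 0.19 for Acer3 and from -0.040 to 0.074 for Fa2h. CTK2+GAL versus CTK-2 ranged from -0.072 to 0.062 for Fa2h, and the interaction from -0.091 to 0.051 for Fa2h and from -0.033 to 0.061 for Ugt8. Leaving out CTL 3 and GAL 3 together, which deviated alike, was chosen after seeing the data. It gave -0.028 for Fa2h and -0.0085 for Ugt8 in GAL versus CTL and 0.014 for the interaction of Fa2h. The interaction was then 0.12 for Acer3, beside 0.28 with all libraries, and 0.47 for Acer2, beside 0.58. Acer2 in CTK2+GAL versus GAL was -1.54 in that setting, beside -1.23. The depth limits Acer2 most, with 6 to 38 counts in a library.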
